A study of Mus musculus with 15 samples.

Results

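Trichostatin A (TSA), an inhibitor of histone deacetylases (HDACs), was compared with its vehicle dimethyl sulfoxide (DMSO) in primary mouse chondrocytes, the cells that make cartilage. The comparison uses the 3 arrays labelled TSA and the 3 labelled DMSO, 6 of the 15 arrays of the series, and each array carries total RNA from cultures given 1 of the 5 treatments. Cartilage was dissected from hind limbs of CD1 mice, an outbred stock, at embryonic day 15.5 and the digested cells were plated in monolayer. An incubation of 24 h is named in the labels and 2 h in the design text. The methods of the study give 24 h for the DMSO cultures and do not name TSA. The dose of TSA is not given in the sources used here. No genetic change is named for any group, and the 3 arrays of a treatment are described as biological replicates. The other 9 arrays hold cultures given LY294002 (LY, an inhibitor of PI3K), UO126 (an inhibitor of the ERK kinase MEK) or SB202190 (labelled SB90 and known to inhibit p38 kinases), 3 each, and they enter a direct comparison with TSA and the estimate of the spread. The cultures are mixed primary cells, so a signal is an average over all cells on the plate.

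HDACs remove acetyl groups from lysines of histone tails and of other proteins. They act in corepressor complexes that sequence-specific repressors bring to genes, and TSA blocks the zinc-dependent enzymes but not the NAD-dependent sirtuins. Inhibition raises histone acetylation within hours, and in most cell types it raises some transcripts, lowers others and stops the cell cycle. In growth plate cartilage, HDAC4 is known to hold back hypertrophy by binding MEF2 factors.

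The measurement was the log2 signal of each probe set, a group of short probes that read 1 transcript. A difference of a gene given below without the word fold is on this log2 scale. Of 45037 probe sets, 34902 had a mean of at least log2 of 50, that is 5.64, in TSA or in DMSO and were tested with limma, with p values adjusted over these 34902. The probe sets just inside that limit were those of Slc10a1, with a higher group mean of 5.6439, and Cryzl2, with 5.6440. Just outside it lay Cfap97, with 5.6438, and Myb, with 5.6437. Arrays of the same treatment correlated with each other at 0.989 to 0.994 across probe sets, and DMSO arrays correlated with TSA arrays at 0.937 to 0.944. These correlations are across probe sets, which are not independent replicates.

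TSA moved a large part of the transcriptome in both directions. At an adjusted p of 0.05, 8026 probe sets (23% of those tested) were higher in TSA and 7180 (20.6%) were lower. At least 2-fold differences that passed were found for 1718 probe sets (4.92%) upward and 1101 (3.15%) downward. Where each gene was represented by its brightest probe set, 4322 of 16025 genes (27%) were higher and 3634 (22.7%) were lower. Of these, 937 (5.85%) were at least 2-fold higher and 657 (4.1%) at least 2-fold lower. Most differences were small, with a median size of 1.17-fold over all probe sets tested and a 99th percentile of 4.31-fold. Differences of at least 10-fold were found for 28 probe sets, covering 24 named genes, upward and 13, covering 9, downward, and all of these passed the test. The median log2 difference over all genes tested was -0.04. Counts of a gene list below are to be set against the 27% higher and 22.7% lower. The size of a fold belongs to the probe set it was measured with. Of 111 named probe sets whose gene has several, 38 differed by over 1.5 times from the average over the probe sets of the gene, 37 of them with the same direction and past the test, and the exception was Hdac11. Averages are given beside such genes where they are described. Over all genes with a symbol that were tested, 175 had at least 1 probe set called higher and at least 1 called lower. With 3 arrays a group an exact permutation test of a single gene cannot go below p = 0.1, so the calls rest on the spread that limma pools over genes and over the 5 treatments.

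**Figure D1:**
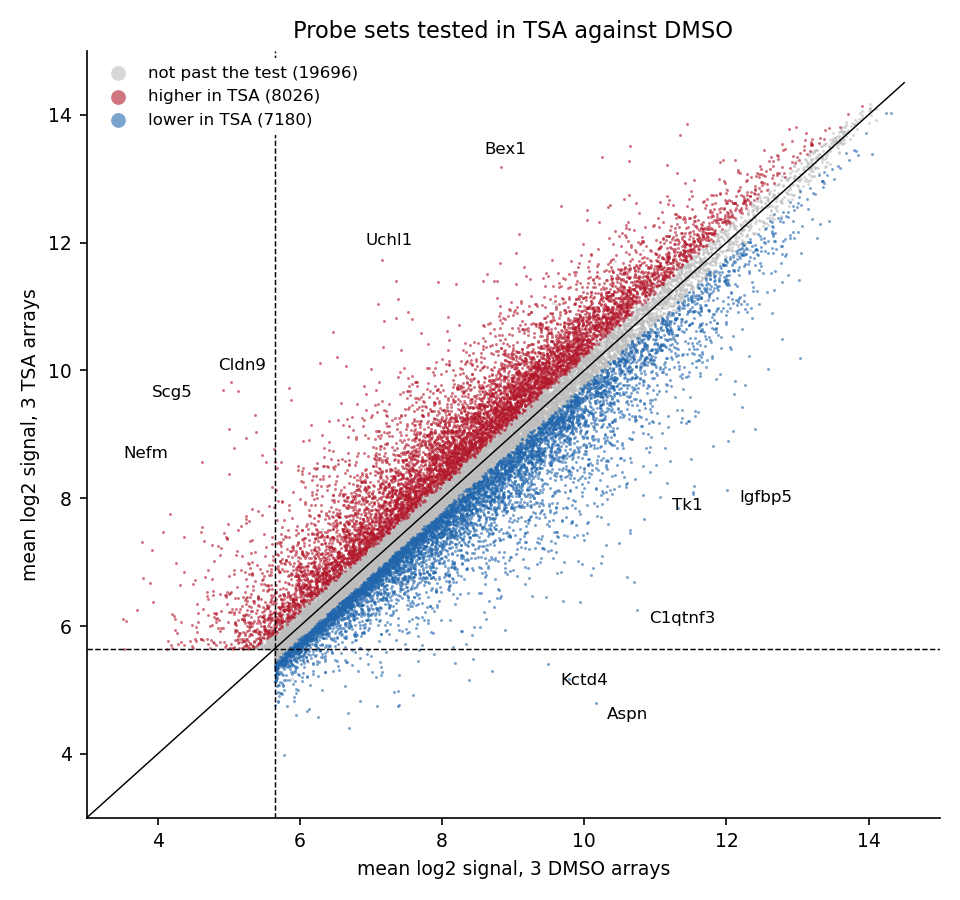
Each point is 1 of 34902 probe sets, with the mean log2 signal of the 3 DMSO arrays on the x axis and of the 3 TSA arrays on the y axis. Red points were higher in TSA (8026), blue points lower (7180) and grey points did not pass the test, the diagonal marks equal means, and the dashed lines mark a signal of 50. Cldn9, Scg5, Uchl1 and Bex1 lie far above the diagonal, and Aspn, C1qtnf3, Kctd4 and Igfbp5 far below it.

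The cultures carried the transcripts that define chondrocytes. In DMSO, 27 of the 28 genes of the cartilage matrix and SOX list had a mean above a signal of 50. Of 18193 named genes, 16026 had a probe set at that level in TSA or DMSO, so this count alone does not identify the cells. The log2 signal of Col2a1, the chain of the main cartilage collagen, was 14.36, 14.29 and 14.30 in the DMSO arrays. Transcripts of other cell types were also present. Of 34 skeletal muscle markers, 29 were tested, 21 were lower in TSA and none was higher, and the summed linear signal of the list ran from 5542 to 10502 in DMSO and from 3291 to 3583 in TSA. Actc1, cardiac actin that embryonic muscle also makes, was at 10.85, 9.95 and 9.10 in DMSO and at 7.17, 6.86 and 6.88 in TSA. The DMSO arrays thus differed from each other by more than the TSA arrays did, and the groups did not overlap. Myod1, which commits cells to the muscle lineage, was 0.60 lower on the log2 scale, and Myog was 1.16 lower. In these bulk samples fewer muscle cells and less muscle RNA per cell cannot be told apart, and the same holds for each cell type below.

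Of 19 genes of fibroblasts and perichondrium, 14 were lower and 3 higher, with a summed signal of 63452 to 76228 in DMSO and 48454 to 51768 in TSA. Fap, a fibroblast surface protease, was 4.14-fold lower, while Thy1, a fibroblast surface antigen, was 3.17-fold higher. Of 15 macrophage and leukocyte markers tested, 10 were lower and 2 higher, and the summed signal was 3203 to 4306 in DMSO and 3076 to 3374 in TSA. Lyz2, the macrophage lysozyme, was 2.65-fold lower, and Cd68, a lysosomal protein of macrophages, was 4.66-fold higher. Coro1a, an actin-binding protein of leukocytes, was 5.89-fold higher, or 3.17-fold averaged over its probe sets. Laptm5, a lysosomal protein of leukocytes, was at 9.75, 9.57 and 10.57 in DMSO and 1.99-fold lower in TSA, and without DMSO array 3 its adjusted p from limma was 0.0638. Of 8 endothelial markers tested, 1 was higher and 1 lower, the former 0 without DMSO array 1, TSA array 1 or TSA array 2, and Pecam1, Cdh5, Tie1 and Vwf were below the limit in both groups. Of 6 erythroid markers tested, none passed, and of 6 adipocyte markers tested, 4 were lower, a count of 2 without TSA array 1, where Fabp4 and Pparg did not pass. Among 9 osteoclast markers, Ctsk was 4.83-fold lower and Itgb3 1.98-fold higher, and 2 were lower without DMSO array 3. Among 5 Schwann cell and glial markers, Cnp was 1.98-fold higher and the other members did not pass. The part of these cells in the differences described next was not tested.

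The HDAC genes encode the enzymes that TSA inhibits. By representative probe set, 3 of the 11 HDAC genes were higher and 3 lower in TSA, 27.3% each against 27% and 22.7% of all genes, none by 2-fold, and the median difference was -0.02. Hdac1, a nuclear enzyme of the SIN3 and NuRD complexes, was at 11.24, 10.98 and 10.96 in DMSO and at 11.72, 11.54 and 11.62 in TSA, a log2 difference of 0.57 ± 0.10 (SE, adjusted p = 0.000194 from limma). Hdac5, a class II enzyme, was 0.53 higher, and Hdac6, the cytoplasmic tubulin deacetylase, was 0.58 higher. In all 3 genes each TSA array lay above each DMSO array. Hdac7 was 0.60 lower (adjusted p = 9.45e-05 from limma) and Hdac10 was 0.32 lower (adjusted p = 0.00157 from limma). Hdac8 was 0.41 lower with an adjusted p of 0.0479 from limma, and it was at 6.39, 5.93 and 5.68 in DMSO and 5.48, 5.68 and 5.62 in TSA. That call was lost in 9 of 14 alternative settings, among them the fits without DMSO array 1 (-0.21) and without TSA array 1 (-0.35). Hdac2, Hdac3, Hdac4, Hdac9 and Hdac11 did not pass, at -0.02, 0.21, 0.03, -0.03 and -0.36. The Hdac11 probe sets disagreed, since a dimmer probe set of this gene was 1.69 higher and passed the test. Averaged over its probe sets Hdac11 was 0.66 higher (adjusted p = 3.38e-05 from limma), while without TSA array 2 its brightest probe set passed as lower (-0.57, adjusted p = 0.0472 from limma), so no direction is given for Hdac11. Hdac9 was 0.39 higher averaged over its probe sets (adjusted p = 0.00441 from limma). With these averages 5 HDAC genes were higher.

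Among the 7 sirtuins, 3 were higher and 1 lower, or 2 lower without DMSO array 3. Sirt7, a nucleolar deacylase, was at 8.66, 8.45 and 8.53 in DMSO and at 10.25, 10.12 and 10.25 in TSA. It was 3.15-fold higher (adjusted p = 1.9e-10 from limma), with no overlap between the groups, whereas Sirt1, the nuclear deacetylase, was 0.69 lower. Of 16 corepressor subunits, 6 were higher and 1 lower, with a median of 0.06. The count lower was 3 without DMSO array 2 and 2 without each TSA array in turn. The gene that fell was Mbd3, a NuRD subunit, at 2.27-fold, and the genes that rose included Sap30 and Sin3a of the SIN3 complex, at 0.79 and 0.64, and Rcor1 of the REST corepressor complex, at 0.74. Rest itself, which represses neuronal genes, was at 9.59, 9.07 and 9.24 in DMSO and 9.02, 8.94 and 9.17 in TSA and did not pass (-0.25, adjusted p = 0.112 from limma). Of 14 acetyltransferases and BET proteins, which add and read the acetyl mark, 2 were higher and 4 lower. Ncoa1 was 0.82 higher, and Brd2 and Crebbp were 0.53 and 0.49 lower.

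Of 13 histone genes tested, 5 were higher and 3 lower. H1f2, a linker histone, was at 11.59, 11.25 and 11.42 in DMSO and at 13.13, 12.89 and 12.78 in TSA, 2.85-fold higher (adjusted p = 1.37e-08 from limma). The genes that fell were Cenpa, the centromeric histone, at 5.32-fold (2.03-fold averaged over its probe sets), H2ax, the variant phosphorylated at DNA breaks, at 2.57-fold, and Macroh2a2 at 2.09-fold. A list of 13 genes that are textbook responders to HDAC inhibitors had 8 members higher and 3 lower, with a median of 0.86. Hspa2, a testis-enriched HSP70 chaperone, was 7.37-fold higher. Txnip, an inhibitor of thioredoxin, was between 9.98 and 10.15 in DMSO and between 12.49 and 12.53 in TSA, 5.5-fold higher. Clu, an extracellular chaperone, was 4.99-fold higher, Rhob, a small GTPase, 3.45-fold and Gsn, which severs actin filaments, 1.81-fold. Cdkn1a, the p21 inhibitor of cyclin-dependent kinases, was at 11.47, 11.66 and 11.88 in DMSO and at 12.13, 12.08 and 12.10 in TSA. It was 1.35-fold higher, an adjusted p of 0.0117 from limma. Averaged over its probe sets Cdkn1a was 1.29-fold higher and did not pass (adjusted p = 0.0548 from limma). The 3 lower members were Ccnd1, cyclin D1, 2.66-fold lower, and Tyms, thymidylate synthase, and Tgfbr2, a TGF-beta receptor, which fell by 0.51 and 0.35. Thbs1 overlapped between the groups (0.18, adjusted p = 0.168 from limma).

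Increases of over 20-fold were found for 5 genes. Cldn9, a tight junction claudin, was at 5.04, 4.99 and 5.05 in DMSO and at 10.05, 9.56 and 9.83 in TSA, 27.6-fold higher with a log2 difference of 4.79 ± 0.14 (SE, adjusted p = 1.63e-13 from limma), or 12.3-fold averaged over its probe sets. Scg5, a secretory granule chaperone of a prohormone convertase, was at 4.85, 4.90 and 4.99 in DMSO and at 9.70, 9.74 and 9.63 in TSA, 27.4-fold higher (4.77 ± 0.08, adjusted p = 1.4e-15 from limma). Uchl1, a ubiquitin hydrolase abundant in neurons, was at 7.40, 7.08 and 6.99 in DMSO and at 11.84, 11.67 and 11.68 in TSA, 23.8-fold higher. The groups of these 3 genes lay more than 4 log2 units apart, a gap many times their spread. Bex4 and Bex1, small brain-expressed X-linked proteins, were 23.4-fold and 20.5-fold higher. Bex1 had a wider spread in DMSO, at 9.68, 8.55 and 8.25, than in TSA, at 13.22, 13.13 and 13.21.

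The other genes among the 20 largest increases came from several tissues. Nefm and Nefl, neurofilament chains of axons, were 15.3-fold and 13.1-fold higher, and Nnat, an imprinted proteolipid of developing brain, was 15.3-fold higher. Gtsf1, a germ line protein of the piRNA pathway, was at 5.17, 5.48 and 5.44 in DMSO and 9.43, 9.22 and 9.27 in TSA, 15.4-fold higher. Qpct, glutaminyl cyclase, rose 17.5-fold, Chchd10, a mitochondrial protein, 16.6-fold and Hspa1a, the stress-induced HSP70 chaperone, 14.2-fold. Il33, a nuclear cytokine of the interleukin-1 family, was 12.8-fold higher, Prtn3, a neutrophil granule protease, 12.5-fold and Krtap1-5, a hair keratin-associated protein, 11-fold. The remaining genes were Sema4f, Lrp11, Gpr50, Ugt8a and Cadm4, between 10.8-fold and 14.7-fold higher. Averaged over probe sets, Gtsf1 was 6.84-fold higher, Sema4f 5.46-fold, Gpr50 4.4-fold and Ugt8a 3.41-fold. In each of the 20 genes all TSA arrays lay above all DMSO arrays, a condition used to choose them.

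**Figure D2:**
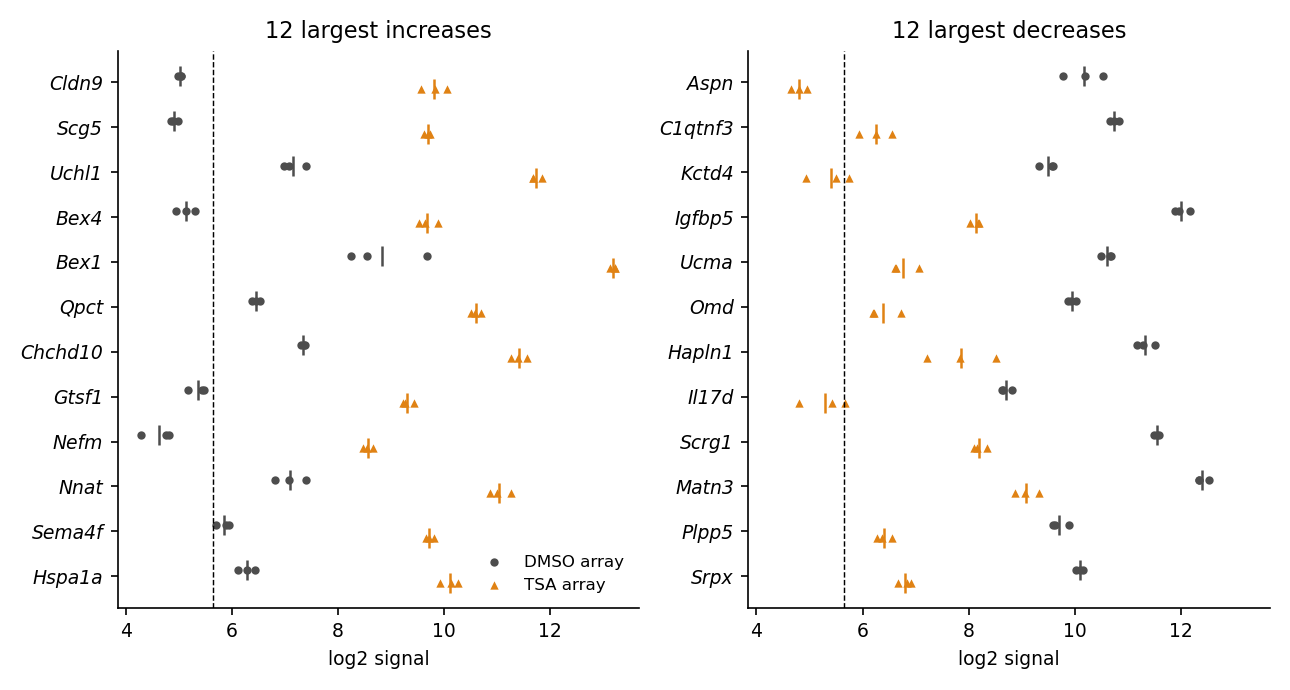
Log2 signals (x axis) of the 12 genes with the largest increase (left) and the largest decrease (right), with a grey circle for each DMSO array, an orange triangle for each TSA array, a vertical tick at each group mean and a dashed line at a signal of 50. Scg5 moves from about 4.9 to 9.7 and Aspn from 10.2 to 4.8, and no TSA array lies among the DMSO arrays of any of the 24 genes.

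The promoters of the genes at the ends of the range are shown to set the largest increases beside the largest decreases. They belong to Scg5 and Uchl1 at the upper end and to Aspn and C1qtnf3 at the lower, since Cldn9 had no entry. They run from 250 bases before to 50 after the gene start, are taken from RefSeq on GRCm38.p6 and are written 5′ to 3′ on the strand of the gene. Capitals mark matches on either strand to 3 short motifs. The GC box was searched as GGGCGG. The CAAT box was searched without mismatch as CCAAT. The TATA box was searched in the same way as TATAAA. A match counted anywhere in the window, whatever its distance from the gene start, so a box named below is a motif match only. Scg5 lies on the minus strand at chr2:113829042-113829341, Uchl1 on the plus strand at chr5:66675871-66676170, Aspn on the plus strand at chr13:49544193-49544492 and C1qtnf3 on the plus strand at chr15:10952082-10952381.
Scg5: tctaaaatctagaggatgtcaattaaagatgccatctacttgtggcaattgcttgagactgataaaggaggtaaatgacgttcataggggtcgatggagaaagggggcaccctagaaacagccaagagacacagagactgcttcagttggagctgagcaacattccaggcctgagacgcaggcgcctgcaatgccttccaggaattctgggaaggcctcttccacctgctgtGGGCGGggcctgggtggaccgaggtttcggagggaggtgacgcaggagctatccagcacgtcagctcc
Uchl1: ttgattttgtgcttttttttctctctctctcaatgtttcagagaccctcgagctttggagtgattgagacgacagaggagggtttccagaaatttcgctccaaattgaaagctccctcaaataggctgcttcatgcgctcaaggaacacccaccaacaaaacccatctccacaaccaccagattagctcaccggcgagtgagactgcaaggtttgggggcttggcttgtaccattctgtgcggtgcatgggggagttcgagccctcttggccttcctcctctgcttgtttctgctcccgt
Aspn: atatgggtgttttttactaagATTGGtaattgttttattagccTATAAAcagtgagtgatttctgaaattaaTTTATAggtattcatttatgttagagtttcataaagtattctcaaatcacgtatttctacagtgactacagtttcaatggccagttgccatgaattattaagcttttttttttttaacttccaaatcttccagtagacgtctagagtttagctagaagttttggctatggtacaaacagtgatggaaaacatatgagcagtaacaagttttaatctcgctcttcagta
C1qtnf3: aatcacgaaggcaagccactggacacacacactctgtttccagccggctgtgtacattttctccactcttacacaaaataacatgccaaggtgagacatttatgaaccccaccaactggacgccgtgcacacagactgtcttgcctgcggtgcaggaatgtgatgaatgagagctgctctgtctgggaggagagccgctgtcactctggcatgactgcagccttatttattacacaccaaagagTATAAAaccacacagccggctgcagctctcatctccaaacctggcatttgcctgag
Scg5 holds 1 GC box, Uchl1 none of the 3 motifs, Aspn 1 CAAT box and 2 TATA boxes, and C1qtnf3 1 TATA box. The windows of Scg5 and Uchl1 hold 9 CpG each, that of Aspn 3 and that of C1qtnf3 7. Over the genes tested, 12726 had an entry in the table, and 57.8% of these held a GC box. The share was 71.5% among 3512 genes called higher, 74.7% among the 750 that were also at least 2-fold higher, 56.9% among 2916 called lower and 50.7% among 6298 that did not pass. Over all 27025 promoters of the table it was 35.9%. CAAT boxes differed less, with 39.4% of genes called higher, 37.8% of those called lower and 37.9% of all promoters in the table. TATA boxes were found in 6.44% of genes called higher, 9.4% of those called lower, 8.79% of all genes tested and 14.2% of the table. The median number of CpG was 22 in genes called higher, 18 in those called lower and 16 in those that did not pass. These shares are a description, and no test was made of them.

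**Figure D3:**
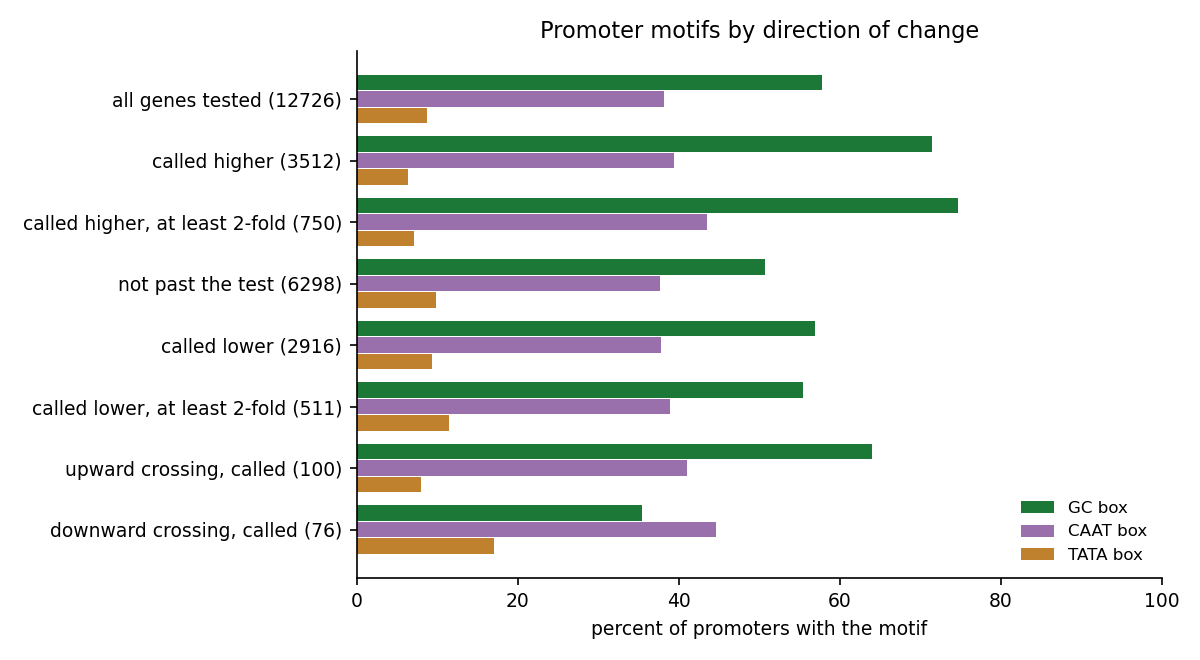
Bars give the percent of promoters (x axis, from 0) with a GC box, a CAAT box or a TATA box on either strand, for the sets of genes named on the y axis with their number. The GC box share is 71.5% in genes called higher and 56.9% in genes called lower. For genes that crossed a signal of 50 and passed the test it is 64% upward and 35.5% downward. Over all genes tested it is 57.8%.

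Of 34 neuronal genes tested, 20 were higher, 13 did not pass and 1 was lower, that is 58.8% higher and 2.94% lower against 27% and 22.7% of all genes. Among the 34, 10 were at least 2-fold higher, and the median difference was 0.53. Besides Uchl1 and the neurofilaments, the largest were Kif5c, a neuronal kinesin, at 5.7-fold, Stmn2, a regulator of microtubules in growing axons, at 5.55-fold, Vgf, a secreted neuropeptide precursor, at 4.91-fold and Map2, a dendritic microtubule protein, at 4.54-fold. Kif5c was at 7.51, 7.43 and 7.21 in DMSO and at 9.84, 9.96 and 9.89 in TSA, without overlap. Averaged over probe sets Kif5c was 2.08-fold, Map2 2.07-fold and Syt1 1.34-fold higher. Synapsin 1 (Syn1) was 2.88-fold higher, Tubb3, the neuronal beta-tubulin, 2.96-fold and Syt1, the calcium sensor of synaptic vesicles, 2.43-fold. Other synaptic and neuronal genes did not pass, among them Syp (-0.10), Rab3a (-0.03), Elavl3 (-0.03) and Gria2 (-0.02), and Cplx2 was 0.26 lower. Averaged over its probe sets, Syp was 0.55 higher and passed (adjusted p = 0.0354 from limma). The single lower call was lost in 6 of 15 alternative settings. Of 21 germ line and pluripotency genes, 12 were below a signal of 50 in both groups, and of the 9 tested 2 were higher and 1 lower, the latter 0 without DMSO array 2 and 2 without DMSO array 3 or TSA array 2. Tex19.1, a germ cell gene, was at 5.71, 5.77 and 5.62 in DMSO and at 6.60, 5.84 and 6.15 in TSA, 0.49 higher, and Pou5f1 did not pass (-0.16).

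Of 15 keratinocyte and epithelial markers tested, 4 were higher and 2 lower, 26.7% and 13.3% against 27% and 22.7% of all genes, so these counts are not above the background. Krt19, a simple epithelial keratin, was at 8.34, 8.07 and 8.18 in DMSO and at 11.34, 11.39 and 11.31 in TSA, 8.87-fold higher. Dsp, desmoplakin of desmosomes, was 7.95-fold higher and Krt18 4.57-fold, and averaged over its probe sets Dsp was 3.88-fold higher. Krt7, also a keratin of simple epithelia, was 4.12-fold lower, at 8.69, 8.44 and 8.53 in DMSO and 6.92, 6.09 and 6.51 in TSA. The keratins of stratified epithelia, Krt5, Krt14 and Krt15, did not pass, at -0.10, -0.14 and -0.09, and neither did the epithelial adhesion gene Epcam at -0.37. Averaged over its probe sets, Epcam was 1.09 higher and passed (adjusted p = 2.12e-07 from limma), so its direction depends on the probe set. Cdh1, a further marker of the list, had a mean below the limit in both groups and was not tested. Its signals were 4.09, 4.05 and 3.95 in DMSO and 5.71, 4.88 and 6.31 in TSA, without overlap.

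Of 16 metallothioneins and NRF2 targets, 14 were higher and none lower, 8 of them at least 2-fold, with a median of 1.07. Mt2, which binds zinc and copper, was at 11.46, 11.47 and 11.39 in DMSO and at 13.91, 13.71 and 13.96 in TSA, 5.35-fold higher (adjusted p = 7.85e-12 from limma), and Mt1 was 5.06-fold higher, or 3.3-fold averaged over its probe sets. Srxn1, which reduces oxidised peroxiredoxins, was 4.06-fold higher, Gclc, the catalytic subunit of glutathione synthesis, 3.31-fold and Hmox1, heme oxygenase, 2.73-fold. Slc7a11 and Sod1 did not pass, at 0.08 and 0.05.

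Of 30 immediate early genes, 20 were higher and 2 lower, with a median of 0.85. The count of higher members was 13 without TSA array 1, and that of lower members was 1 without DMSO array 2 or 3 or TSA array 2 or 3. Ier3 was at 10.50, 10.39 and 10.20 in DMSO and at 12.76, 12.65 and 12.34 in TSA, 4.66-fold higher, and Atf3, a stress-induced bZIP factor, was 4.62-fold higher. Dusp1, a phosphatase of MAP kinases, was 4.35-fold higher, at 13.05, 12.80 and 12.21 in TSA against 10.66, 10.42 and 10.62 in DMSO. Fos was at 10.10, 10.21 and 9.54 in DMSO and at 12.23, 12.46 and 10.73 in TSA. Its difference of 1.85 ± 0.72 (SE) had an adjusted p of 0.0464 from limma and did not pass in 8 of 15 alternative settings, among them the fits without each DMSO array and without TSA array 1 or 2. Fosl1, a FOS relative, fell by 1.27, and Egr1 did not pass (0.84).

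Interferon response genes and genes of antigen presentation were mostly higher. Of 21 interferon response genes tested, 12 were higher and 2 lower, with a median of 0.27. Rsad2, the antiviral protein viperin, was at 7.42, 7.63 and 7.49 in DMSO and at 10.26, 9.43 and 9.96 in TSA, 5.16-fold higher. Bst2, tetherin, and Usp18, which removes ISG15 from proteins, were 4.1-fold and 4.06-fold higher, whereas Ifit2 fell by 0.96. Of 15 antigen presentation genes tested, 9 were higher and 1 lower, or 2 lower without TSA array 2. Cd74, the invariant chain of MHC class II, was at 6.54, 6.43 and 6.34 in DMSO and at 8.47, 8.53 and 8.83 in TSA, 4.52-fold higher. The class II gene H2-Ab1 was 2.76-fold higher, and the class I gene H2-D1, which shares sequence with its paralogs, was 3.26-fold higher. Psmb10, an immunoproteasome subunit, was 4.09-fold lower, while the subunit Psmb9 was 1.08 higher on the log2 scale. Among 26 chemokines, interleukins and receptors, 6 were higher and 10 lower. Ptgs2, cyclooxygenase-2, was 3.75-fold higher and Ccl2, a chemokine for monocytes, 3.16-fold, although without TSA array 1 the adjusted p of Ccl2 from limma was 0.051. Il1rn, the interleukin-1 receptor antagonist, and Cxcl12, which holds progenitor cells in their niche, fell by 1.48 and 1.34 on the log2 scale.

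Of 21 lysosome and autophagy genes, 15 were higher and 1 lower, with a median of 0.59, and none was lower without DMSO array 1, TSA array 1 or TSA array 2. Map1lc3b, the LC3 protein of autophagosomes, was 2.31-fold higher, Ctsl, a lysosomal protease, 2.26-fold (1.46-fold averaged over its probe sets), and Sqstm1, an autophagy receptor, 2.07-fold. Of 28 oxidative phosphorylation genes, 16 were higher and 2 lower, none by 2-fold, with a median of 0.29, and 1 was lower without DMSO array 1, TSA array 1 or TSA array 2. Of 14 glycolytic genes, 9 were higher and 3 lower. The phosphofructokinase genes moved in opposite directions, with Pfkp 3.28-fold and Pfkm 1.94-fold higher and Pfkl 2.35-fold lower. Of 27 ribosomal protein genes tested, none was higher and 1, Rpl14, was lower, with a median of 0.06, and 3 were higher without DMSO array 1.

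The cell cycle genes fell almost without exception. Of 41 genes of DNA replication and mitosis, 40 were lower in TSA, 30 of them at least 2-fold, and none was higher, with a median of -1.50. Tk1, thymidine kinase of S phase, was at 11.15, 10.92 and 11.10 in DMSO and at 8.13, 8.01 and 7.90 in TSA, 8.26-fold lower (adjusted p = 1.7e-12 from limma). Cdc6, which loads the replicative helicase, was 6.17-fold lower, Ccna2, cyclin A2, 6.16-fold and Plk1, a mitotic kinase, 5.19-fold. No TSA array reached a DMSO array in these 4 genes. Rrm2, a subunit of ribonucleotide reductase, was 4.85-fold lower, Mcm5, a helicase subunit, 4.22-fold, Mki67, the proliferation marker, 4.09-fold and Cdk1 3.25-fold. Pcna, the sliding clamp, fell by less, 1.35-fold, and Prim1, a primase subunit, did not pass (-0.13).

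The genes that govern entry into S phase were split. Of 16 G1 regulators, 7 were higher and 6 lower. Rb1, the retinoblastoma protein, was at 9.20, 8.72 and 8.93 in DMSO and at 11.09, 10.75 and 10.98 in TSA, 3.98-fold higher, and its relative Rbl2 was 0.86 higher, whereas Rbl1 was 2.45-fold lower. Ccnd1, cyclin D1, was at 11.81, 11.57 and 11.60 in DMSO and at 10.22, 10.20 and 10.33 in TSA, 2.66-fold lower. Among the inhibitors, Cdkn2a was 2.03-fold higher and Cdkn2b 0.56 higher, while Cdkn2c fell by 0.64, Cdkn1c fell by 0.52 and Cdkn1b did not pass (-0.11).

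Of 18 p53 targets, 9 were higher and 4 lower, with a median of 0.28. Pmaip1, the BH3 protein NOXA, was at 6.95, 6.38 and 7.38 in DMSO and at 9.86, 9.66 and 9.73 in TSA, 7.2-fold higher (adjusted p = 5.19e-09 from limma). Plk2, Btg2 and Trp53inp1 were 4.34-fold, 3.35-fold and 2.85-fold higher, while the targets Ccng1 and Phlda3 did not pass, both at -0.08. Averaged over probe sets Plk2 was 1.97-fold and Trp53inp1 1.87-fold higher. Of 14 members of the BCL2 family, 6 were higher and 4 lower. Bcl2l11, the BH3 protein BIM, was 3.2-fold higher, and Bak1, a pore-forming member, was 2.21-fold lower. Bmf was 2.3-fold higher by its representative probe set, and a further Bmf probe set was 0.38 lower, with an average over its probe sets of 0.27.

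Every cartilage gene tested was lower in TSA. Of 27 genes of cartilage matrix and the SOX factors that drive them, 27 were lower, 18 of them at least 2-fold, with a median of -1.73, against 22.7% of all genes lower. Ucma, a secreted protein of the upper growth plate, was at 10.68, 10.48 and 10.66 in DMSO and at 6.61, 6.62 and 7.07 in TSA, 14.3-fold lower (adjusted p = 7.59e-13 from limma) and 9.04-fold lower averaged over its probe sets. Matn3, matrilin-3, was at 12.33, 12.33 and 12.53 in DMSO and at 9.05, 8.88 and 9.32 in TSA, 9.96-fold lower. Hapln1, the link protein that ties aggrecan to hyaluronan, was 11.1-fold lower by the probe set with the largest change and 5.59-fold lower by its brightest, with 9.27-fold as the average over its probe sets.

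Col2a1 was at 13.92, 13.96 and 14.18 in TSA, 0.29 below DMSO (adjusted p = 0.00493 from limma). Its DMSO signals of 14.36, 14.29 and 14.30 were the highest of any probe set on those arrays, and the part of a signal ceiling in this small difference was not tested. Col9a1, Col9a2, Col9a3 and Col11a1 fell by 0.44, 0.69, 0.62 and 0.49, and Col11a2 by 1.52. Acan, the proteoglycan aggrecan, was at 12.26, 12.21 and 12.48 in DMSO and at 9.96, 10.14 and 10.56 in TSA, 4.28-fold lower, Matn1 was 7.46-fold lower and Comp 3.31-fold. Among the regulators, Sox9, the master factor of chondrocytes, was at 10.71, 10.56 and 10.83 in DMSO and at 9.48, 9.24 and 9.96 in TSA, 2.21-fold lower (adjusted p = 9.74e-06 from limma). Its partners Sox5 and Sox6 were 1.63-fold and 1.4-fold lower, and Fgfr3, the receptor that limits growth plate proliferation, was 2.15-fold lower. In every alternative setting between 26 and 27 members of this list were lower and none was higher.

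The small leucine-rich proteoglycans, which bind collagen fibrils and growth factors, held the largest decrease of the arrays. Of 9 genes, 9 were lower, 7 at least 2-fold, with a median of -2.49. Aspn, asporin, was at 10.53, 10.19 and 9.78 in DMSO and at 4.79, 4.66 and 4.95 in TSA, 41.3-fold lower with a log2 difference of -5.37 ± 0.19 (SE, adjusted p = 2.22e-12 from limma). Omd, osteomodulin, was 11.8-fold lower, Ogn, osteoglycin, 8.24-fold and Prelp 7.63-fold. Dcn, decorin, and Bgn, biglycan, were 0.92 and 0.86 lower on the log2 scale.

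C1qtnf3, a C1q and TNF related protein of cartilage, was at 10.83, 10.66 and 10.74 in DMSO and at 6.25, 5.93 and 6.55 in TSA, 22.6-fold lower. Igfbp5, a binding protein of insulin-like growth factors, was 14.6-fold lower by this probe set, at 12.16, 11.88 and 11.97 in DMSO and 8.18, 8.03 and 8.19 in TSA. A second Igfbp5 probe set, with a higher mean over the 15 arrays, was 1.53-fold lower, so the size of the decrease of this gene depends on the probe set. Il17d, a cytokine, Scrg1, a secreted protein of chondrocytes, and Srpx were 10.6-fold, 10.1-fold and 9.77-fold lower. Kctd4, Plpp5, Rcbtb2, Hspb6 and Depdc1a were between 9.29-fold and 17-fold lower. Averaged over probe sets, Kctd4 was 6.03-fold lower, Igfbp5 4.73-fold, Il17d 3.74-fold and Rcbtb2 2.5-fold.

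Genes of hypertrophy and mineralization were lower in part. Of 21, 10 were lower and 3 higher, with a median of -0.39, and the count of higher members was 1 without DMSO array 2 and 1 without TSA array 3. Panx3, a channel of prehypertrophic chondrocytes, was at 9.67, 9.37 and 9.96 in DMSO and at 5.95, 6.65 and 7.92 in TSA, 7.1-fold lower, or 2.17-fold averaged over its probe sets. Mmp13, the collagenase of terminal chondrocytes, was at 12.71, 12.49 and 12.54 in DMSO and at 9.52, 9.38 and 11.15 in TSA, 5.94-fold lower. In both genes TSA array 3 lay above the other TSA arrays and below every DMSO array. Pth1r, the receptor of parathyroid hormone-related protein, was 3.8-fold lower and Sp7, osterix, 2.43-fold. Col10a1, the collagen that defines hypertrophy, was at 9.63, 10.13 and 11.36 in DMSO and at 10.47, 10.81 and 11.49 in TSA. The groups overlapped, and the difference of 0.55 did not pass (adjusted p = 0.354 from limma). Ihh, the hedgehog ligand of prehypertrophic cells, did not pass either (-0.55, adjusted p = 0.0686 from limma). Mef2d and Mef2a, which class II HDACs bind, were 0.58 and 0.26 higher, and Mef2c did not pass (0.28). Averaged over its probe sets Mef2a did not pass (0.16, adjusted p = 0.0686 from limma).

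Of 18 other collagens, 12 were lower and 4 higher. Col27a1, a cartilage fibril collagen, was 4.5-fold lower, Col6a3 2.58-fold and Col3a1 2.31-fold, while the basement membrane collagens Col18a1 and Col4a2 were 1.02 and 0.60 higher. Of 24 extracellular proteases and inhibitors, 14 were lower and 5 higher. Mmp14, a membrane-bound collagenase, was at 11.08, 10.88 and 11.08 in DMSO and at 8.38, 8.43 and 8.77 in TSA, 5.62-fold lower, and Mmp23 was 5.12-fold lower. The aggrecanases Adamts4 and Adamts5 fell by 1.26 and 1.09. Plat, tissue plasminogen activator, was 4.59-fold higher, at 9.24, 9.21 and 9.25 in DMSO and 11.37, 11.32 and 11.60 in TSA, and Htra1, a secreted serine protease, was 2.69-fold higher. Averaged over its probe sets Plat was 2.11-fold higher. Of 24 genes of glycosaminoglycan synthesis, 8 were higher and 7 lower, 33.3% and 29.2% and so near the shares of all genes. The number higher was 5 without DMSO array 3 and 5 without TSA array 3. The genes that fell were Csgalnact1 and Chsy3 of chondroitin synthesis, at 2.77-fold and 2.4-fold (Chsy3 1.55-fold averaged over its probe sets), Papss2, which supplies sulfate, at 2.48-fold, and Has2, hyaluronan synthase, at 1.99-fold, with Hs6st2, B4galt7 and Chst11.

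Of 45 TGF-beta and BMP genes, 19 were higher and 11 lower, with a median of 0.07. Among ligands, Bmp2 was at 7.68, 7.03 and 7.37 in DMSO and at 9.12, 8.83 and 9.29 in TSA, 3.29-fold higher. Tgfb2 was 3.2-fold higher and Bmp4 2.11-fold. Gdf5, the joint ligand, fell by 1.04 on the log2 scale. The BMP target genes Id1, Id2 and Id3 were 2.46-fold, 2.83-fold and 2.14-fold higher, and the inhibitory Smad6 and Smad7 were 0.90 and 1.13 higher. The receptors Bmpr1a and Bmpr1b did not pass, at 0.05 and 0.02. Ltbp2, a matrix protein of the LTBP family, was 4.97-fold lower and Ltbp1 2.83-fold lower, or 1.71-fold averaged over the probe sets of Ltbp1.

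Of 45 Wnt genes tested, 15 were higher and 12 lower, with a median of 0.10, and their shares of 33.3% and 26.7% were near the 27% and 22.7% of all genes. Wnt11 was 3.71-fold higher, at 7.69, 7.42 and 7.51 in DMSO and 9.64, 9.07 and 9.58 in TSA, and the Wnt target Axin2 and the factor Lef1 were both 1.15 higher. The secreted inhibitor Sfrp2 was 5.1-fold lower, the receptor Fzd9 3.25-fold and the ligand Wnt5a 2.24-fold. Of 19 IGF and FGF genes tested, 3 were higher and 7 lower. Fgf7, a ligand for epithelial receptors, was 8.22-fold lower and Igf1, at 10.47, 9.93 and 9.71 in DMSO and 7.51, 7.73 and 7.11 in TSA, 5.99-fold lower, or 3.52-fold for Igf1 averaged over its probe sets. Igfbp2 rose 6.21-fold. On the log2 scale Igfbp3 fell by 2.13 and the receptor Igf1r was 0.83 higher. Of 18 imprinted genes, 4 were higher and 9 lower, and next to Nnat the largest was Peg10, a retrotransposon-derived gene, at 3.68-fold.

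Sterol and fatty acid genes were mostly lower. Of 20 genes of cholesterol synthesis and uptake, 16 were lower and 2 higher, with a median of -0.68. Insig1, the sterol-regulated anchor of SREBP, was at 9.16, 8.99 and 8.25 in DMSO and at 7.02, 6.10 and 6.60 in TSA, 4.69-fold lower, and Cyp51, lanosterol demethylase, was 3.68-fold lower. Of 15 fatty acid synthesis genes, 9 were lower and 3 higher, and the desaturase Fads2 and fatty acid synthase (Fasn) were 4.52-fold and 3.61-fold lower, or 2.67-fold for Fads2 averaged over its probe sets. Of 26 genes of endoplasmic reticulum folding and secretion, 12 were lower and 1 higher, with a median of -0.25. Xbp1, a factor of the unfolded protein response, was 2.44-fold lower, and Serpinh1, the collagen chaperone, was 2.04-fold lower. Of 19 actin cytoskeleton genes, 11 were lower and 4 higher. Actg2, Myl9 and Mylk of smooth muscle contraction were 4.89-fold, 3.92-fold and 3.77-fold lower. Of 23 Hox genes tested, 5 were lower and 1 higher, none by 2-fold, and the 21.7% lower was near the 22.7% of all genes. The count of higher members was 2 without DMSO array 1 and 0 without DMSO array 3 or TSA array 2, and averages over probe sets gave 9 lower. Hoxa11, which patterns the middle of the limb, fell by 0.73, and 17 members did not pass.

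**Figure D4:**
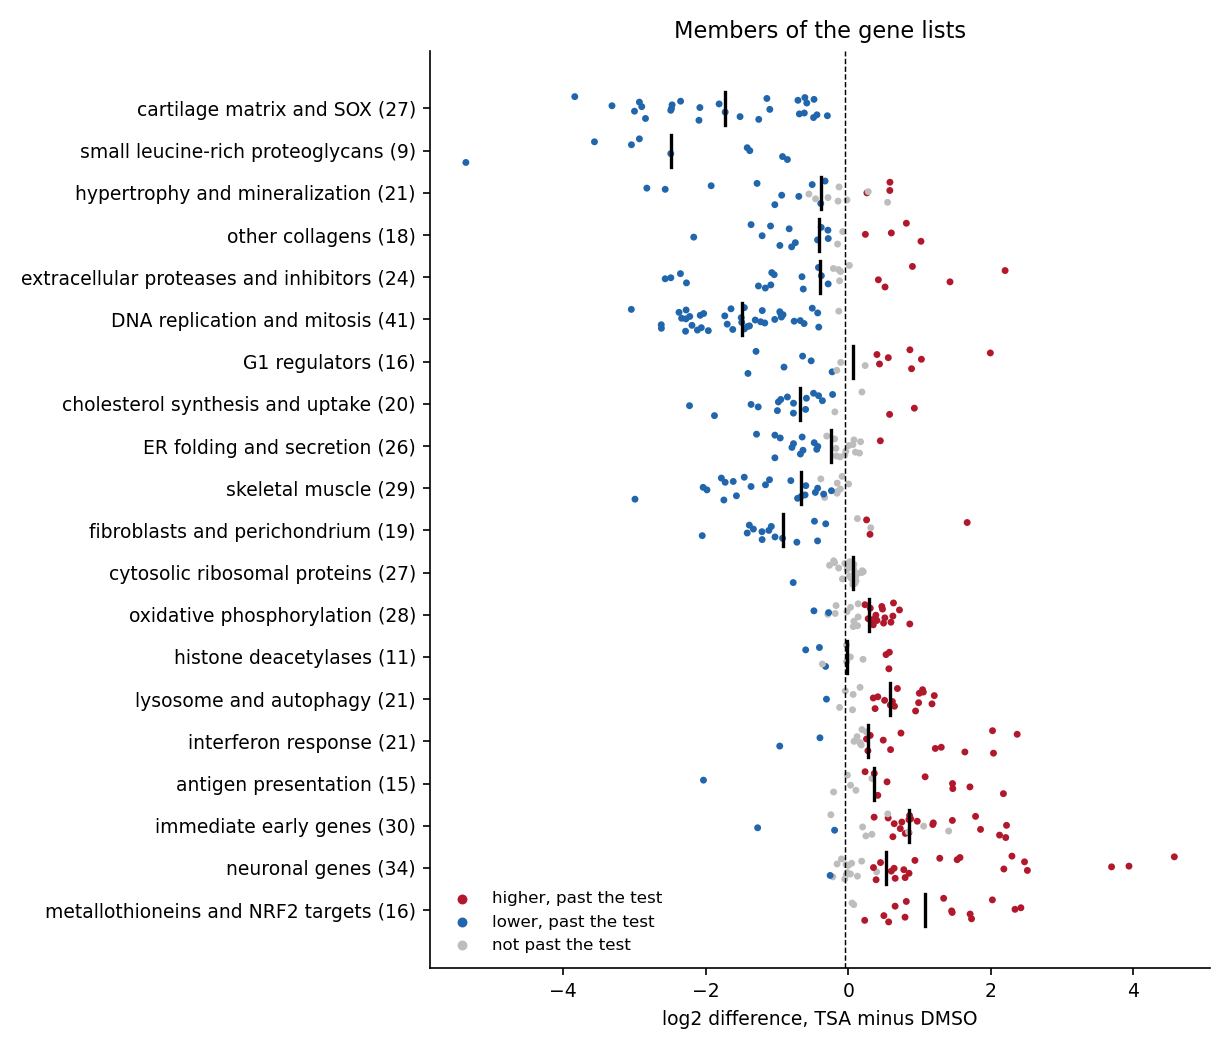
Each point is 1 gene, placed by its log2 difference of TSA minus DMSO (x axis), in the list named on the y axis with its number of genes tested. Red and blue points passed the test upward and downward, grey points did not, black ticks mark the median of a list and the dashed line the median over all genes tested. All points of the cartilage and small proteoglycan lists are blue, and the medians run from -2.49 to 1.07.

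Genes that crossed a signal of 50 were counted separately. A probe set that crosses had to differ, so these counts are a description. The signal of 50 is a fixed limit, and a crossing was not read as a gain or loss of expression. In DMSO 573 probe sets of 448 genes lay below 50 and in TSA at or above it, and 995 probe sets of 647 genes did the reverse. The median size was 0.67 on the log2 scale upward and 0.22 downward. Of the upward crossings 426 (74.3%) passed the test, and of the downward ones 391 (39.3%) did. Most downward crossings thus did not pass. Over all probe sets tested, 23% passed as higher and 20.6% as lower. At least 2-fold differences were found for 204 of those that rose and 59 of those that fell, and all of these passed the test. At least 4-fold differences were found for 61 and 20. Every array of each group lay on its own side of the limit for 270 probe sets of 225 genes upward and 193 of 139 genes downward.

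Cldn9, Scg5, Bex4, Gtsf1, Nefm and Nefl were among the genes that rose across the limit. Of the others, Tmem255a was at 4.31, 3.75 and 4.16 in DMSO and at 7.41, 7.48 and 7.55 in TSA, 10.6-fold higher. Dner, a neuronal Notch ligand, was 9.67-fold higher and Nfe2l3, a bZIP factor, 9.29-fold. Fxyd7, a brain regulator of the sodium pump, rose 8.75-fold, Serpini1, the neuronal serpin, 8.21-fold, Glrb, a glycine receptor subunit, 8.1-fold and Cbln1, a synapse organizer, 6.62-fold. Abhd3, Rhpn2, Wdr17, Tm6sf1 and Snhg14, a noncoding transcript, were between 6.83-fold and 10.4-fold higher. Averaged over probe sets these were smaller for 8 genes. Tmem255a was then 5.12-fold higher, Rhpn2 4.78-fold, Tm6sf1 3.99-fold and Serpini1 3.92-fold. Snhg14 was 3.22-fold higher on that average, Wdr17 2.88-fold, Nfe2l3 2.64-fold and Cbln1 2.59-fold. A fold from so low a signal depends on how background was corrected before deposit.

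Aspn, Kctd4 and Il17d fell below the limit from a high signal. F13a1, the A subunit of coagulation factor XIII, was at 8.57, 8.30 and 8.44 in DMSO and at 5.42, 5.18 and 5.86 in TSA, 7.73-fold lower, with 1 TSA array above 5.64. Cyp7b1, an oxysterol hydroxylase, was 6.75-fold lower, Gria3, a glutamate receptor subunit, 6.4-fold and Clcf1, a cytokine of the interleukin-6 family, 6.21-fold. Evi2a and the interferon-inducible gene Ifi204 were 6.2-fold and 5.04-fold lower. Kif23 and Cenpe, motors of mitosis, were 5.24-fold and 5.12-fold lower by these probe sets, and Cenpe was 2.82-fold lower by its brightest. Averaged over probe sets, Gria3 was 3.7-fold lower, Clcf1 3.22-fold, Cyp7b1 2.9-fold and Kif23 2.5-fold. Among genes whose representative probe set crossed and passed, 100 that rose had a promoter entry and 64% of these held a GC box, with a median of 20 CpG. Of 76 that fell, 35.5% did, with a median of 6.5 CpG. Over all genes tested the share was 57.8% with a median of 18 CpG. Over all promoters of the table it was 35.9% with a median of 7. No test was made of these shares.

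The TSA arrays were then compared directly with the mean of the 3 kinase inhibitor treatments, which leaves out the shared DMSO arrays. By representative probe sets, 4340 of 15972 genes (27.2%) were higher in TSA and 4063 (25.4%) were lower. All 27 cartilage matrix and SOX genes and all 9 small proteoglycans were lower than under the kinase inhibitors, and so were 39 of 41 genes of DNA replication and mitosis. Of the neuronal genes, 21 of 34 were higher and 1 was lower. Scg5 was 4.88 above the kinase inhibitor mean (adjusted p = 3.79e-17 from limma), and its means under LY, UO126 and SB90 were 4.86, 4.75 and 4.82 against 4.91 in DMSO. Cldn9, Bex4 and Uchl1 were 4.88, 4.45 and 4.39 above. The difference for Aspn was -5.67 (adjusted p = 4.39e-14 from limma), with means of 10.64, 10.82 and 9.95 against 10.17 in DMSO. C1qtnf3, Kctd4 and Igfbp5 followed at -4.43, -4.24 and -3.83. In each of these 8 genes the means under the 3 kinase inhibitors lay closer to DMSO than to TSA, which is a description, since the genes were chosen for the size of their difference under TSA.

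For some genes a kinase inhibitor also stood away from DMSO. Nnat had means of 8.68, 8.66 and 7.87 under LY, UO126 and SB90, between DMSO at 7.10 and TSA at 11.03, and TSA was 2.63 above the kinase inhibitors (adjusted p = 6.61e-12 from limma). Krt18 had means of 7.34, 7.41 and 8.59 under them against 8.81 in DMSO, so the direct difference of 3.22 exceeded that from DMSO, 2.19. Ucma had a mean of 9.20 under SB90, 10.61 in DMSO and 6.77 under TSA. For other genes the direct difference was small or did not pass. Il1rn was 1.48 below DMSO and 0.40 below the kinase inhibitors (adjusted p = 0.00146 from limma), and its mean under UO126 was 7.93 against 8.09 under TSA. Has2 was 0.99 below DMSO and 0.14 below the kinase inhibitors, which did not pass (adjusted p = 0.314 from limma). Phlda2 was 0.80 below DMSO and 0.26 below the kinase inhibitors (adjusted p = 0.0158 from limma), with a mean of 7.38 under LY. Fos was 1.23 above the kinase inhibitors and did not pass (adjusted p = 0.101 from limma). Laptm5 did not pass either (-0.23, adjusted p = 0.469 from limma).

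**Figure D5:**
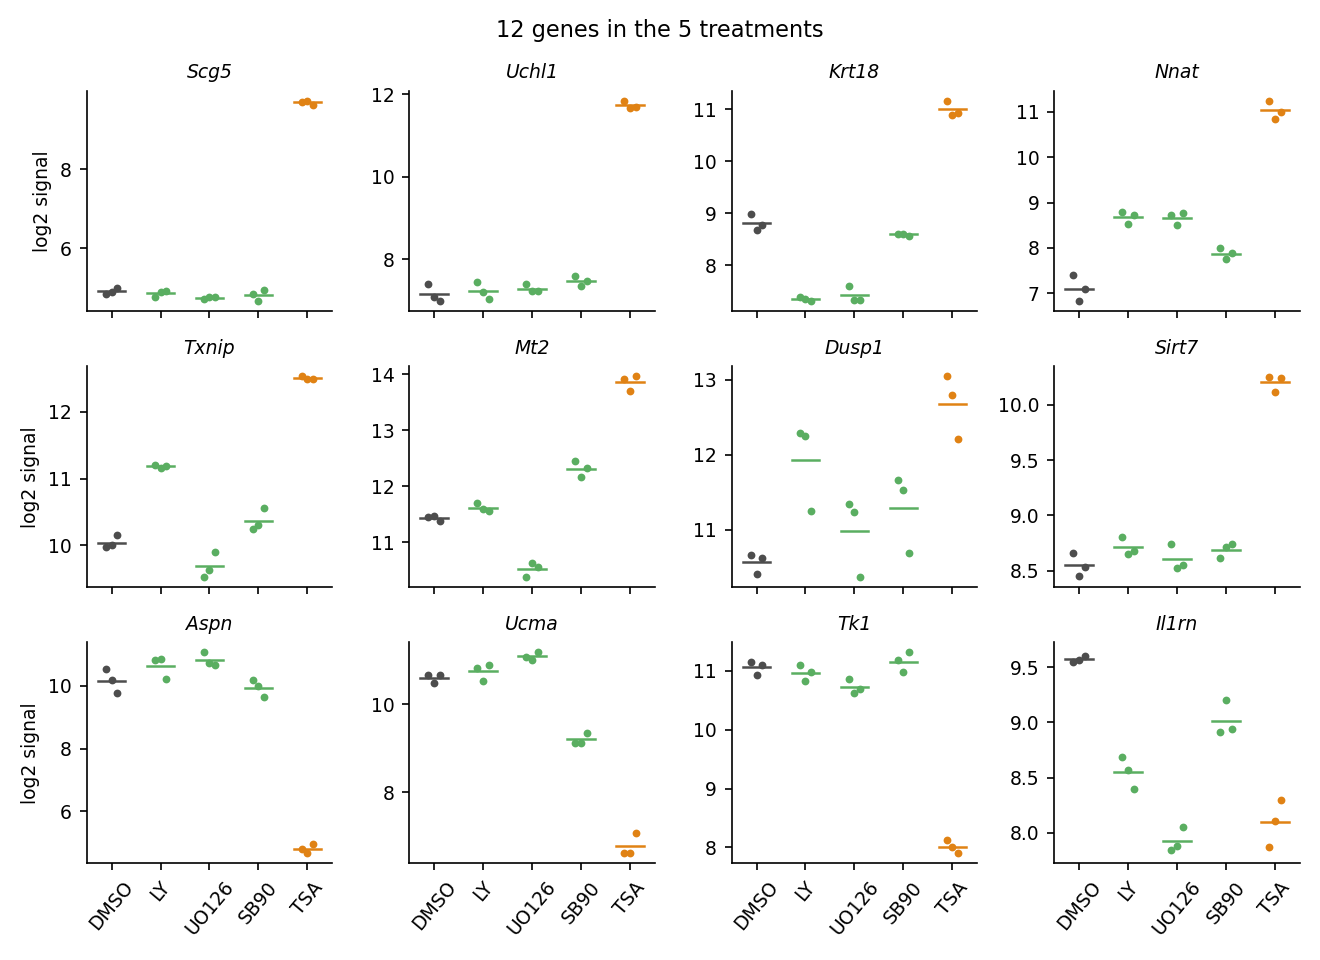
Log2 signals (y axis, scaled for each gene) of 12 of the named genes in the 3 arrays of each treatment (points) with the treatment means (lines). Scg5, Uchl1, Sirt7, Aspn and Tk1 differ from DMSO mainly in TSA. The mean of Nnat is also higher under LY, UO126 and SB90, Txnip also stands higher under LY, and Il1rn is lower under each of the 4 inhibitors.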

How the data were processed

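Total RNA of 15 cultures was hybridised to 15 one-colour Affymetrix mouse arrays, 3 for each of DMSO, LY, UO126, SB90 and TSA. The deposited table holds log2 signals that the authors had background-corrected, normalized and summarised. Which of the methods named in the sources (GC-RMA or RMAExpress) gave these values was not settled, and their treatment of dim probes affects low signals most. The members and gene lists were chosen with earlier results of these data known.

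From the 45101 rows, 64 array controls were left out. A probe set was tested where its mean reached a signal of 50 in either group, the limit named in the methods. limma 3.58.1 in R 4.3.3 was fitted with 1 mean per treatment over the 15 arrays (10 residual degrees of freedom), with moderated variances and Benjamini-Hochberg adjustment over the tested probe sets, at a threshold of 0.05. TSA was compared with DMSO and with the mean of the 3 kinase inhibitors. Genes were named from the platform annotation, which gave 34945 probe sets 1 symbol, 932 several and 9160 none, and probe sets with several were not named. A gene is represented by its probe set with the highest mean over all arrays. Of 989 list symbols, 911 were on the array under a current RefSeq name. Named were the 20 largest increases and 15 largest decreases among calls whose groups did not overlap, 12 upward and 8 downward crossings, up to 4 called members of each list, all HDACs and the largest differences from the kinase inhibitors. Further list members were named for their role after their values were seen. On simulated data for this comparison, with independent noise over 34902 probe sets, 100 were changed by 1.4-fold and 100 by 2-fold. Of these, 59% and 96% were recovered, with 8 false calls among 163. In the data 15206 probe sets were called and probe sets can move together, so these shares do not carry over to it. The number of arrays limits the precision. The study methods name 3 independent experiments for DMSO and LY294002. Whether arrays of 1 number share an experiment was not settled, and the same numbers in different groups were not treated as pairs. Alternatives changed the filter, the normalization, the prior, the block, the arrays and the probe sets used. Python 3.11.15 with pandas 2.3.3, numpy 2.4.6 and matplotlib 3.10.9 made the summaries and figures.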

Additional observations from a re-analysis of the deposited data

How the results depend on the processing

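The counts of probe sets higher and lower in TSA stayed within 1.5 times their values in every alternative run. Without single DMSO or TSA arrays they ranged from 7106 to 8445 higher and from 6047 to 7129 lower. Median centring gave 8384 and 5837, and the 2 groups fitted alone gave 7319 and 5805. The counts of probe sets that crossed the limit depended on it, with 1010 upward at a signal of 100, and with 189 upward and 631 downward where the filter used the mean over all arrays, which leaves fewer probe sets to cross. After quantile normalization 689 crossed upward and 725 downward, and after median centring 662 and 791, against 573 and 995 in the main run. The excess of downward crossings was thus smaller under both. Replicate numbers were not taken as pairs. Between DMSO and TSA, the only groups checked, the correlations of same-numbered deviations were 0.24, 0.47 and 0.03, and DMSO array 1 correlated best with TSA array 3, which does not exclude that arrays of 1 number share an experiment. With the replicate block the counts were 8944 and 8952, which held all 15206 probe sets called without it, Hdac3 passed (0.21, adjusted p = 0.0442 from limma), and 11 glycosaminoglycan genes were lower in place of 7. Of 215 named probe sets, 201 kept their direction and side of the threshold in all alternatives. The sign turned for 4 HDAC genes, none of which had passed, and for Hdac9 and Hdac11 the turned value passed. Hdac2 was 0.013 with median centring and ran from -0.11 to 0.13 without single arrays, being above 0 without DMSO array 1 and, at 0.026, without TSA array 2. Hdac4 ran from -0.085, without DMSO array 3, to 0.13. Hdac9 was 0.0129 with quantile normalization, 0.0115 with median centring and, with the mean of all its probe sets, 0.39 (adjusted p = 0.00441 from limma), and ran from -0.101 to 0.056, the latter without DMSO array 2. Hdac11 was 0.66 with that mean (adjusted p = 3.38e-05 from limma), and it passed as lower without TSA array 2 (-0.57, adjusted p = 0.0472 from limma). The causes were not tested. Depth is not defined for arrays, and signals near background limit the folds of genes that crossed.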
